A study of Mus musculus with 7 samples.

Results

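Connexin mRNAs were counted in cells of the V-SVZ, the germinal zone along the lateral ventricle where adult neural stem cells (NSCs) reside, by 3′ single-cell sequencing. Members were chosen by gene symbol, and Gja1, Gja4, Gja5, Gjb1, Gjb2, Gjb6, Gjc1, Gjc3 and Gjd2 made up 9 of the 20 connexin genes and of the 32285 genes in the count matrices. All mice were 31 to 33 days old, and each library pooled 2 to 3 mice of 1 genotype. The 3 control libraries came from mice whose label reads Prdmflox/flox, which carried the floxed allele without Cre. The 3 cKO libraries came from hGFAP-Cre+/-; Prdm16flox/flox mice, and the 1 DKO library came from mice that were hGFAP-Cre+/-; Prdm16flox/flox; Vcam1flox/flox. hGFAP-Cre is driven by a human GFAP promoter and acts in radial glia, so cells born from other lineages, such as endothelial cells and microglia, were not its targets. The study asked how Prdm16, a transcriptional regulator, and the adhesion molecule Vcam1 set the fate of postnatal NSCs.

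Connexins are membrane proteins that assemble into hemichannels, and hemichannels of adjoining cells dock into gap junctions that pass ions and small metabolites. Each cell type uses its own set: astrocytes couple into a syncytium that buffers potassium, oligodendrocytes dock onto astrocytes through channels of mixed composition, and vascular cells conduct dilation along the vessel wall. In the germinal zone gap junctions and connexin-based adhesion are known from radial glia and their progenitors.

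Of 65049 barcodes, 43346 cells had 500 to 7000 genes and at most 10% mitochondrial counts, and 37520 of these fell in the 11 types compared. These were NSC-like, astrocyte-like, ependymal-like, transient amplifying precursor (TAP)-like, neuroblast-like, neuron-like, oligodendrocyte precursor (OPC)-like, oligodendrocyte-like, endothelial-like, mural-like (pericytes and smooth muscle) and microglia-like cells. T cell-like cells, also named by markers, numbered 82 and were too few. The NSC-like cluster met 5 of 7 NSC markers and 7 of 8 astrocyte markers, and the astrocyte-like cluster met 8 of 8 astrocyte and 4 of 7 NSC markers, so the 2 classes overlap in their genes. Connexin symbols were left out of the features used for clustering. Library totals ran from 45758003 UMIs (unique molecular identifiers, 1 per captured mRNA) to 141353017 UMIs. cKO libraries 2 and 3 kept 49.8% and 47.2% of their barcodes, against 70.2 to 74.7% elsewhere. Of the targeted genes, Vcam1 over all cells stood at 52.9, 41.5 and 38.4 CPM (a gene's UMIs scaled to a fixed total per sum of cells) in control libraries 1 to 3, at 48.4, 68.3 and 56.9 CPM in cKO libraries and at 27.1 CPM in the DKO library. Prdm16 stood at 14.6 to 19.8 CPM in control, 12.9 to 14.7 CPM in cKO and 16.2 CPM in DKO libraries; only the 3′ end was sequenced, and whether it lies within the deleted part is not given in the sources used here, so Prdm16 checks no label. Prm1, a sperm protamine gene whose sequence is part of some Cre transgenes, was at most 0.095 CPM in control libraries and at least 38.4 CPM in the other libraries. Libraries shared at most 70 cell barcodes, 1.48% of the smaller library.

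Among the 11 named types, Gja1, Gjb2 and Gjb6 were highest in astrocyte-like cells and next in NSC-like cells. Gjb1 was highest in oligodendrocyte-like cells, while Gjc3 stood at overlapping levels in OPC-like and oligodendrocyte-like cells. Gja4 and Gjc1 were highest in mural-like cells, Gja5 was highest in endothelial-like cells, and Gjd2 reached its highest level in neuroblast-like cells at only 1.49 ± 0.68 CPM (SD, n = 7 libraries). Gjb2 and Gjd2 stood higher in clusters that could not be named, at 168 and 19.8 CPM. Across 12 fixed contrasts between types, 53 of 84 connexin tests passed an adjusted p of 0.05 in edgeR's quasi-likelihood test with the library as a block, 33 higher and 20 lower, against 62.2% of all gene tests, so that connexins were called about as often as other genes. The types were formed in the same cells, so these tests describe the size of a difference beside its spread over libraries. Gja5 and Gjd2 were too low to enter these contrasts. Against ependymal-like cells, 4 of 7 connexins were higher and 1 lower in astrocyte-like cells (69.9% of all genes called), and 3 were higher and 3 lower in NSC-like cells (67.4%). The lower calls in NSC-like cells were not stable: Gja4, Gjb1 and Gjc1 each lost theirs under at least 3 alternatives, and with cells named 1 by 1 Gja4 (1.5) and Gjb1 (0.79) turned sign. The Gjc3 call in astrocyte-like over ependymal-like cells was lost under 3 alternatives and turned to -0.40 in control libraries alone. Neuron-like against neuroblast-like cells gave 1 higher call, Gjc1 at 1.13 (SE 0.28, edgeR adjusted p = 0.00028), against 72.1% of all genes called, but it was lost in control libraries alone (0.73, edgeR adjusted p = 0.12) and turned to a lower call with cells named 1 by 1 (-1.01, edgeR adjusted p = 8.0e-05). Of the vascular contrasts, endothelial-like against microglia-like cells gave 3 higher and 2 lower (53.9% of all genes called), mural-like against microglia-like cells 3 and 1 (50.9%), and astrocyte-like against endothelial-like cells 3 and 2 (69.5%). Both lower calls against microglia-like cells in the endothelial contrast, Gjb1 and Gjc3, were lost without doublets, and Gjc3 turned to 0.23 with cells named 1 by 1. In the mural contrast the call of Gjc3 was lost under 6 alternatives and that of Gjb2 under 2.

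**Figure D1:**
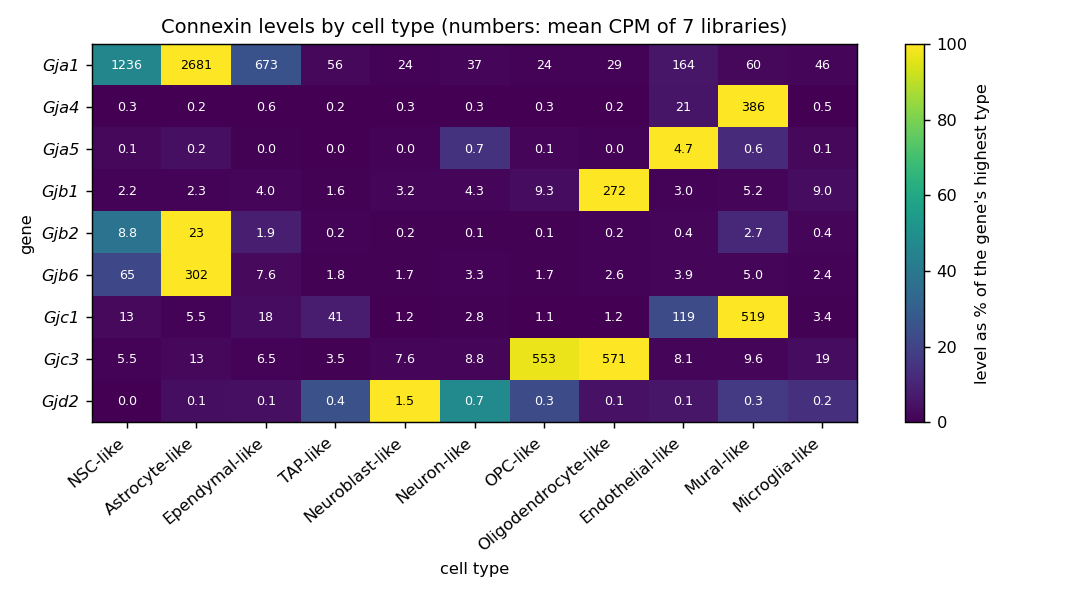
Heat map of the 9 connexins (y axis) in 11 cell types (x axis), with the mean CPM of 7 libraries printed in each cell and color giving that level as a percentage of the gene's highest type. Gja1, Gjb2 and Gjb6 peak in astrocyte-like cells, Gjb1 and Gjc3 in the oligodendrocyte lineage, Gja4 and Gjc1 in mural-like cells, and Gjd2 reaches at most 1.5 CPM.

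Gja1 encodes connexin 43, the main gap junction protein of astrocytes and of radial glia, and lies at chr10:56377330-56402513 on the plus strand of GRCm38. In astrocyte-like cells it stood at 3137, 2497 and 2688 CPM in control libraries 1 to 3, at 2478, 3143 and 2267 CPM in cKO libraries 1 to 3 and at 2557 CPM in the DKO library. In NSC-like cells it stood at 1239, 1073 and 1056 CPM in control, 1046, 1750 and 1325 CPM in cKO and 1159 CPM in DKO libraries. In ependymal-like cells, the ciliated lining of the ventricle, it stood at 635, 593 and 498 CPM in control, 663, 981 and 796 CPM in cKO and 545 CPM in DKO libraries. All libraries of a type lay above all libraries of the next in this order, astrocyte-like over NSC-like over ependymal-like. The fitted difference was 1.25 on the log2 scale between astrocyte-like and NSC-like cells (SE 0.20, edgeR adjusted p = 3.1e-07) and 0.83 between NSC-like and ependymal-like cells (SE 0.20, edgeR adjusted p = 0.00020). From NSC-like to TAP-like cells, their dividing progeny, Gja1 was lower by a log2 difference of 4.34 (SE 0.23, edgeR adjusted p = 1.9e-26). Gja1 was detected in a median of 97.5% of NSC-like cells per library, 82.9% after thinning each cell to 2000 UMIs, and in 98.5% of astrocyte-like and 66.8% of ependymal-like cells at that depth. Neuroblast-like cells gave 11.7% unthinned and 4.15% thinned, with a median depth of 6316 UMIs against 9619 in NSC-like cells.

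Elsewhere Gja1 was at most a few percent of its astrocyte-like level, and so were most astrocyte markers. As a percentage of its astrocyte-like level, Gja1 stood at 0.88% in neuroblast-like, 1.37% in neuron-like, 1.10% in oligodendrocyte-like, 1.70% in microglia-like and 2.23% in mural-like cells, where the median of 8 astrocyte markers stood at 0.93%, 1.40%, 1.09%, 2.14% and 2.30%. It stood at 0.88% against 1.60% in OPC-like and 2.07% against 2.87% in TAP-like cells. At those levels free RNA and expression cannot be told apart. Endothelial-like cells differed, with Gja1 at 6.13% against a marker median of 2.75% and 6 of 8 markers below it. There Gja1 stood at 205, 179 and 173 CPM in control libraries, 174, 141 and 182 CPM in cKO libraries and 95.7 CPM in the DKO library, the lowest of the 7 libraries.

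**Figure D2:**
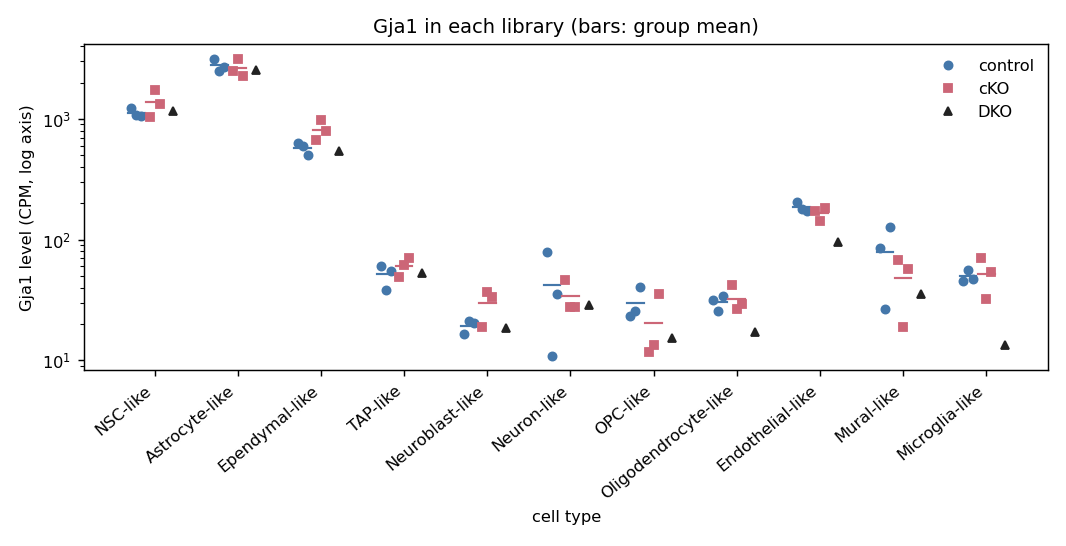
Gja1 level (y axis, CPM, log axis) in each of 11 cell types (x axis), with 1 point per library and a bar at the mean of the 3 control or 3 cKO libraries. Astrocyte-like, NSC-like and ependymal-like cells lie above the other types in every library, and the DKO library is lowest in endothelial-like and microglia-like cells.

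Gjb6 (connexin 30) and Gjb2 (connexin 26) are the other connexins of astrocytes, and Gjb2 is also known from the leptomeninges. The genes are neighbours on the minus strand of chromosome 14, Gjb2 at chr14:57098600-57104702 and Gjb6 at chr14:57123303-57133611 in GRCm38, with 18600 bases between them. Their levels moved together over the 77 library by type sums of the named types: Gjb6 was, among 14058 genes, the gene most like Gjb2 (Pearson r = 0.93 on log2(CPM + 1), a description, since the sums share libraries and depth), and Glud1 was next (r = 0.92). Unnamed clusters were outside these sums. In the unnamed cluster led by Lgals1, Spp1 and Dcn, Gjb2 stood at 168 CPM and Gjb6 at 72.9 CPM. Their means in astrocyte-like cells were 23.0 and 302 CPM. Gjb6 was most like Aldoc and Aldh1l1 (r = 0.94 for both), and Gja1 most like Fam107a and Fgfr3 (r = 0.95 for both). Among the named types Gja1, Gjb2 and Gjb6 were all highest in astrocyte-like cells, while Gjc3 follows another lineage. The 250 bases upstream of the starts of these genes are shown, 5′ to 3′ on the gene's strand, from RefSeq on GRCm38.p6. Capitals mark any match, on either strand, to 6 motifs searched: TATAAA (the TATA box), CCAAT (the CCAAT box), GGGCGG (the GC box), CAGCTG (an E box), ACAAAG (a SOX core) and TGANTCA (an AP-1 site).
Gja1, chr10:56377050-56377299, plus strand: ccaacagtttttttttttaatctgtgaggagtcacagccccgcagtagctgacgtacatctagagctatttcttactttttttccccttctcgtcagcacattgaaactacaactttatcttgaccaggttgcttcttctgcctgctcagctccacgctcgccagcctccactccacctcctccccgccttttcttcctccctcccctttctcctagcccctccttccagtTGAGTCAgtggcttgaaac
Gjb2, chr14:57104703-57104952, minus strand: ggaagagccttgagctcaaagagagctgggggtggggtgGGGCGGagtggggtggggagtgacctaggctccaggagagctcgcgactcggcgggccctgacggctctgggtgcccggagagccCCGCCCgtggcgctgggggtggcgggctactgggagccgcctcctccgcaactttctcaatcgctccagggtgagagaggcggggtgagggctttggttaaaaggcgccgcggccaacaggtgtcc
Gjb6, chr14:57133612-57133861, minus strand: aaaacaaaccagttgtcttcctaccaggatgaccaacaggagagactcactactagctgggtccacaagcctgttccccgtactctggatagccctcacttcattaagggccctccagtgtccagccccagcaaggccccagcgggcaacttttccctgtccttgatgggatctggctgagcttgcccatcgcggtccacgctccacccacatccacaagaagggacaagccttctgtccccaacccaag
Gjc3, chr5:137963099-137963348, minus strand: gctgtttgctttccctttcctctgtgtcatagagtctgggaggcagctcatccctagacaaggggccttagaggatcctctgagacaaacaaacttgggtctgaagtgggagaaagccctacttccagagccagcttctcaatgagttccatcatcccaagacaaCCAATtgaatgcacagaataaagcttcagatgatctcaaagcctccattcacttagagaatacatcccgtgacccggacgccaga

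The Gja1 window held 1 match to TGANTCA, which 6.75% of 32851 promoters of that length hold. The Gjb2 window held 2 matches to GGGCGG on opposite strands (32.7% of promoters hold at least 1), and the Gjc3 window 1 match to CCAAT (33.8%). The Gjb6 window held none of the 6. Gjb2 and its neighbour differed in base composition: the Gjb2 window had 69.2% G and C and 18 CpG, the Gjb6 window 56.8% and 5 CpG, against medians of 52.4% and 6 CpG over all promoters. RefSeq windows were matched for 8 of the 9 members.

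Gjb6 in astrocyte-like cells stood at 303, 343 and 226 CPM in control libraries, 310, 357 and 306 CPM in cKO libraries and 270.2 CPM in the DKO library. In NSC-like cells it stood at 77.8, 83.9 and 54.1 CPM in control, 58.6, 70.0 and 53.2 CPM in cKO and 60.4 CPM in DKO libraries. The 2 types did not overlap, and ependymal-like cells followed at 7.57 ± 2.65 CPM (SD, n = 7), below the share that 7 of the 8 astrocyte markers kept there. Gjb6 was higher in astrocyte-like than in NSC-like cells by 2.34 on the log2 scale (SE 0.14, edgeR adjusted p = 2.7e-23). Thinned to 2000 UMIs, a median of 44.2% of astrocyte-like and 11.3% of NSC-like cells held a Gjb6 UMI (82.9% and 35.0% unthinned), against 0.27% of neuroblast-like cells (0.77% unthinned), at median depths of 9513, 9619 and 6316 UMIs. Gjb2 stood at 20.7, 20.8 and 17.2 CPM in control, 20.9, 31.9 and 22.5 CPM in cKO and 27.2 CPM in DKO astrocyte-like cells, and at 6.97 to 13.3 CPM in NSC-like cells over the 7 libraries. The Gjb2 difference between these types was 1.53 (SE 0.21, edgeR adjusted p = 2.5e-09). Of the 7 connexins tested in this contrast 4 were higher and 1, Gjc1, was lower in astrocyte-like cells, against 45.9% of all genes called. Of the 4, Gjc3 (1.22) lost its call in control libraries alone (0.32, edgeR adjusted p = 0.69) and with cells named 1 by 1 (0.35, edgeR adjusted p = 0.47). In mural-like cells Gjb2 kept 11.5% of its astrocyte-like level, above all 8 astrocyte markers (median 2.30%), although this rested on 15 UMIs.

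Within the NSC-like cluster the same 3 connexins were lower in cells with activation genes. NSC-like cells with UMIs of at least 2 genes of an activation list that included Egfr, Mki67, Top2a, Dlx2 and Ccnd2 are called primed here and numbered 3340, against 1914 other NSC-like cells. Gja1 stood at 1131, 1008 and 994 CPM in primed cells of control libraries, 939.8, 1609 and 1269 CPM in cKO and 1104 CPM in DKO libraries. The other NSC-like cells of the same libraries gave 1474, 1353 and 1194 CPM, 1252, 2341 and 1560 CPM, and 1369 CPM. Primed cells were lower in all 7 libraries, by a log2 difference of -0.43 (SE 0.04, edgeR adjusted p = 5.7e-11). Gjb6 differed by -0.45 (SE 0.07, edgeR adjusted p = 2.4e-06) and Gjb2 by -0.60 (SE 0.18, edgeR adjusted p = 0.014), while Gjc1 and Gjc3 were not called, so that 3 of 5 connexins tested were lower against 22.4% of all genes called. With at most 5% mitochondrial counts the Gjb2 call was lost (-0.62, edgeR adjusted p = 0.078). Of 8 connexin partners tested in the same cells 3 were lower, 2 higher and 3 not called. Mlc1 differed by -0.43 (SE 0.05, edgeR adjusted p = 2.5e-09), Hepacam by -0.17 (SE 0.05, edgeR adjusted p = 0.0079) and Cdh2 by -0.18 (SE 0.05, edgeR adjusted p = 0.0039), while the actin-binding Dbn1 differed by 0.55 (SE 0.08, edgeR adjusted p = 5.3e-07) and the catenin Ctnnb1 by 0.25 (SE 0.05, edgeR adjusted p = 0.00010). With cells named 1 by 1, 2005 of the 5254 NSC-like cells were named astrocyte, and the part of that mixture in the difference was not tested. The gate also selects on depth, with a median of 6402 to 14635 UMIs per primed cell against 4120 to 8038 in the other cells, and the part of depth in the difference was not tested.

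Gjc1 followed the opposite order between NSC-like and TAP-like cells. Gjc1 encodes connexin 45, best known from smooth muscle, the heart's conduction system and embryonic vessels, and lies at chr11:102799579-102819700 (minus strand). In TAP-like cells it stood at 45.6, 34.7 and 36.6 CPM in control, 39.5, 47.0 and 42.9 CPM in cKO and 40.2 CPM in DKO libraries. NSC-like cells gave 9.56 to 14.7 CPM and neuroblast-like cells 0 to 2.11 CPM over the 7 libraries, so TAP-like cells stood above both without overlap. With cells named 1 by 1, 2022 of the 5074 TAP-like cells were named TAP, 1755 neuroblast and 963 stayed unnamed. The TAP-like cluster therefore also held cells with neuroblast markers. The log2 difference was -1.83 for NSC-like against TAP-like cells (SE 0.13, edgeR adjusted p = 3.8e-22) and 5.06 for TAP-like against neuroblast-like cells (SE 0.18, edgeR adjusted p = 7.9e-38). A Gjc1 UMI was found in 40.5% of TAP-like cells (7.09% thinned), 10.0% of NSC-like cells (2.62%) and 0.61% of neuroblast-like cells (0.21%), at median depths of 18287, 9619 and 6316 UMIs. Against neuroblast-like cells 2 connexins were higher and 2 lower in TAP-like cells of 7 tested (65.6% of all genes called), and the higher call of Gja1 was lost with finer clusters, where its difference turned from 1.36 to -0.02. Between NSC-like and TAP-like cells 3 were higher and 1 lower of 7 (74.8% of all genes called).

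In the oligodendrocyte lineage Gjc3, which encodes connexin 29, stood at overlapping levels in the OPC-like and oligodendrocyte-like clusters, whereas Gjb1, which encodes connexin 32, a myelin channel whose human gene is mutated in an X-linked neuropathy, was low in the OPC-like cluster. Gjc3 (chr5:137953461-137963098, minus strand) stood in OPC-like cells at 512, 521 and 527 CPM in control, 513, 548 and 595 CPM in cKO and 656 CPM in DKO libraries. In oligodendrocyte-like cells the 7 libraries ran from 447 to 651 CPM, with a median of 573 CPM. The ranges overlapped. The fitted difference of 0.60 (SE 0.20, edgeR adjusted p = 0.0065) rested on the TMM scaling, without which the median of all genes in this contrast went from 0.06 to -0.48 and that of Gjc3 was 0.05 (edgeR adjusted p = 0.84). Relative to its oligodendrocyte-like level Gjc3 stood at 96.9% in OPC-like cells, above all 6 oligodendrocyte markers (median 37.9%). It was most like Ugt8a (r = 0.97) over the 77 sums.

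Gjb1 (chrX:101376378-101385629, plus strand) stood in oligodendrocyte-like cells at 253, 348 and 236 CPM in control, 266, 244 and 284 CPM in cKO and 276 CPM in DKO libraries, and in OPC-like cells at 3.18 to 14.9 CPM. The difference was 5.43 (SE 0.23, edgeR adjusted p = 1.2e-31). Of 7 connexins 4 were higher and none lower in oligodendrocyte-like cells (64% of all genes called), but the calls of Gja1 and Gjb6 were lost without TMM, in control libraries alone, without doublets and with finer clusters. In OPC-like cells Gjb1 kept 3.43% of its oligodendrocyte-like level, below all 6 oligodendrocyte markers. Thinned, a median of 39.7% of oligodendrocyte-like and 2.29% of OPC-like cells held a Gjb1 UMI, against 0.61% of neuroblast-like cells (88.5%, 8.75% and 1.96% unthinned), at median depths of 20867, 9819 and 6316 UMIs. Gjb1 was most like Ermn, a myelin gene (r = 0.95), and Ptgds, which encodes a prostaglandin D synthase (r = 0.93). Against NSC-like cells, Gjc3 was higher in OPC-like cells by 6.48 (SE 0.28, edgeR adjusted p = 9.9e-31) and Gja1 lower, with a difference of -5.80 (SE 0.26, edgeR adjusted p = 5.5e-30), and in all 2 connexins were higher and 4 lower of 7 (68.1% of all genes called).

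Gates on the differentiation genes Gpr17, Neu4, Bmp4, Enpp6 and Tmem163 split the lineage further. Cells of either cluster with UMIs of at least 2 of them (committed, 4183 cells, 1388 from the OPC-like and 2795 from the oligodendrocyte-like cluster) were set against the remaining OPC-like cells and against oligodendrocyte-like cells gated on Mog, Opalin, Mag, Mobp and Klk6 that were not committed (mature, 2316 cells). The committed gate took most of the 1651 OPC-like and most of the 5143 oligodendrocyte-like cells, and Gpr17 was also an OPC naming marker. Its name is therefore that of a gate and not of a stage. Gjb1 stood at 186 to 286 CPM in committed and 212 to 312 CPM in mature cells over the 7 libraries, and at 0 to 50.5 CPM in the 6 libraries with at least 10 remaining OPC-like cells. Gjc3 stood at 461 to 669 CPM in mature, 460 to 650.1 CPM in committed and 194 to 436 CPM in remaining OPC-like cells (208 UMIs in 255 cells), so that the remaining OPC-like cells, unlike the whole OPC-like cluster, did not overlap with mature cells. Committed cells were higher than remaining OPC-like cells by 4.0 for Gjb1 (SE 0.28, edgeR adjusted p = 5.2e-45) and 1.70 for Gjc3 (SE 0.18, edgeR adjusted p = 5.6e-20), so that 2 of 3 connexins tested were higher against 41% of all genes called. The whole OPC-like cluster gave 204 Gjb1 UMIs and the committed gate 17948, so the committed level of Gjb1 came almost wholly from its oligodendrocyte-like cells. All 5 connexins tested were lower in committed than in mature cells (40% of all genes called), Gjb1 by a difference of -0.45 (SE 0.04, edgeR adjusted p = 1.5e-08) and Gjc3 by -0.18 (SE 0.03, edgeR adjusted p = 5.0e-05). Gja1, Gjb6 and Gjc1 were low in both gates. In oligodendrocyte-like cells Gja1 kept 1.10% and Gjb6 0.85% of their astrocyte-like levels, where astrocyte markers had a median of 1.09%. At those levels free RNA and expression cannot be told apart. Gjc1 stood at a mean of 0.95 CPM in committed and 2.04 CPM in mature cells. When 3 genes of the list were required, the difference to mature cells became -2.19 for Gjb1 and -0.35 for Gjc3. The remaining OPC-like cells were shallow, with medians of 1344 to 2924 UMIs against 13472 to 29856 in committed cells, and the part of depth was not tested.

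**Figure D3:**
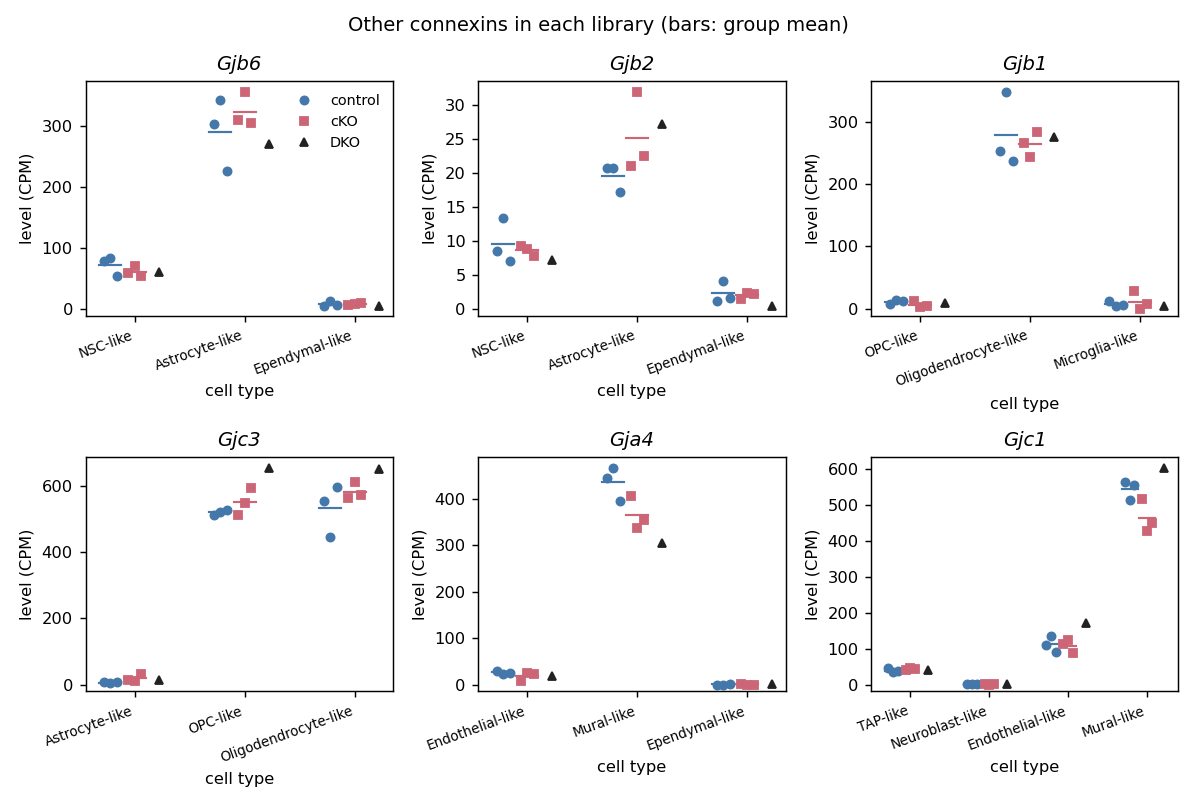
Level (y axis, CPM) of Gjb6, Gjb2, Gjb1, Gjc3, Gja4 and Gjc1 in selected cell types (x axis), with 1 point per library and a bar at the mean of the 3 control or 3 cKO libraries. Gjc3 overlaps between OPC-like and oligodendrocyte-like cells while Gjb1 is high in oligodendrocyte-like cells alone of the types drawn, and Gjc1 is higher in TAP-like than in neuroblast-like cells in every library.

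Gja4, Gjc1 and Gja5 were the vascular connexins. Gja4 encodes connexin 37 and Gja5 connexin 40, both textbook genes of arterial endothelium, and they lie at chr4:127311421-127314039 (minus strand) and chr3:96904693-97077416 (plus strand). Gja4 stood in mural-like cells at 444, 467 and 394 CPM in control, 406, 338 and 354 CPM in cKO and 303 CPM in DKO libraries. In endothelial-like cells it stood at 30.1, 22.6 and 25.2 CPM in control, 7.17, 25.0 and 22 CPM in cKO and 17.7 CPM in DKO libraries. No library of endothelial-like cells came near the mural level, and the difference was -4.04 (SE 0.19, edgeR adjusted p = 1.1e-30). Gjc1 stood in mural-like cells at 565, 514 and 557 CPM in control, 518, 427 and 450 CPM in cKO and 605 CPM in DKO libraries, above 86.6 to 172 CPM in endothelial-like cells (difference -2.0, SE 0.12, edgeR adjusted p = 1.0e-25). Gja1 went the other way and was higher in endothelial-like cells by 1.5 (SE 0.25, edgeR adjusted p = 4.9e-07), so that 1 connexin was higher and 3 lower of 7 tested (44.6% of all genes called). Gja4 was most like Tbxa2r and Lamc3 (r = 0.98 for both) and Gjc1 most like Ppic (r = 0.93) and Ecm2 (r = 0.89). Thinned, 48.8% of mural-like and 3.42% of endothelial-like cells held a Gja4 UMI against a median of 0% of astrocyte-like cells (67.5%, 7.05% and 0% unthinned), at median depths of 4775, 4843 and 9513 UMIs. Astrocyte-like cells held 4 Gja4 UMIs in 2546 cells.

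Arterial endothelium held most of the endothelial Gja4 and nearly all of Gja5. Endothelial-like cells with UMIs of at least 2 of Bmx, Gkn3, Sema3g, Hey1, Efnb2 and Vegfc (arterial, 613 cells) were compared with the other 2147. Gja4 stood at 103, 59.0 and 66.1 CPM in control, 20.1, 47.6 and 61.7 CPM in cKO and 38.8 CPM in DKO arterial cells. The other endothelial-like cells gave 2.02 to 14.8 CPM, below every arterial value, and the difference was 3.12 (SE 0.20, edgeR adjusted p = 1.4e-15). Gja5 gave 64 UMIs in arterial cells, where 41 cells (6.69%) held it, and 3 UMIs in the other cells (0.140%). Its summed level was 12.1 against 0.256 CPM, a ratio of 47.1 with an exact 95% interval of 15.4 to 234 that covers counting error only. By library Gja5 stood in arterial cells at 39.3, 7.16 and 15.0 CPM in control, 15.1, 32.6 and 2.37 CPM in cKO and 4.15 CPM in DKO libraries, each above the other cells of its library, where it reached at most 0.439 CPM. Gja1 was also higher in arterial cells (0.80, SE 0.07, edgeR adjusted p = 4.0e-11) and Gjc1 lower (-0.49, SE 0.09, edgeR adjusted p = 6.4e-05), so that all 3 connexins tested were called against 12.2% of all genes. Arterial cells were deeper, with medians of 4032 to 10275 UMIs against 2558 to 4930, and the part of depth was not tested.

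Within mural-like cells Gja4 and Gjc1 were shared by pericytes and smooth muscle, while Gja5 gave 0 UMIs in both. Gja4 stood at 314 to 477 CPM in cells gated on Kcnj8, Vtn, Abcc9 and Higd1b (pericyte, 571 cells) and 294 to 718 CPM in cells gated on Acta2, Tagln, Myh11 and Cnn1 (smooth muscle, 240 cells). The fitted difference of 0.41 for smooth muscle over pericyte cells (SE 0.13, edgeR adjusted p = 0.0096) was lost with at most 5% mitochondrial counts (0.16, edgeR adjusted p = 0.64), and Gjc1 was not called (-0.18, SE 0.11, edgeR adjusted p = 0.21), so 1 of 2 connexins tested was called against 37.2% of all genes. Mural-like cells gated on the fibroblast genes Dcn, Col1a1, Col1a2, Lum and Slc6a13 (284 cells) were higher than pericyte cells for Gja1 by 0.75 (SE 0.19, edgeR adjusted p = 0.042), 1 call among 3 connexins against 0.283% of all genes, and this too was lost with at most 5% mitochondrial counts (0.91, edgeR adjusted p = 0.83).

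**Figure D4:**
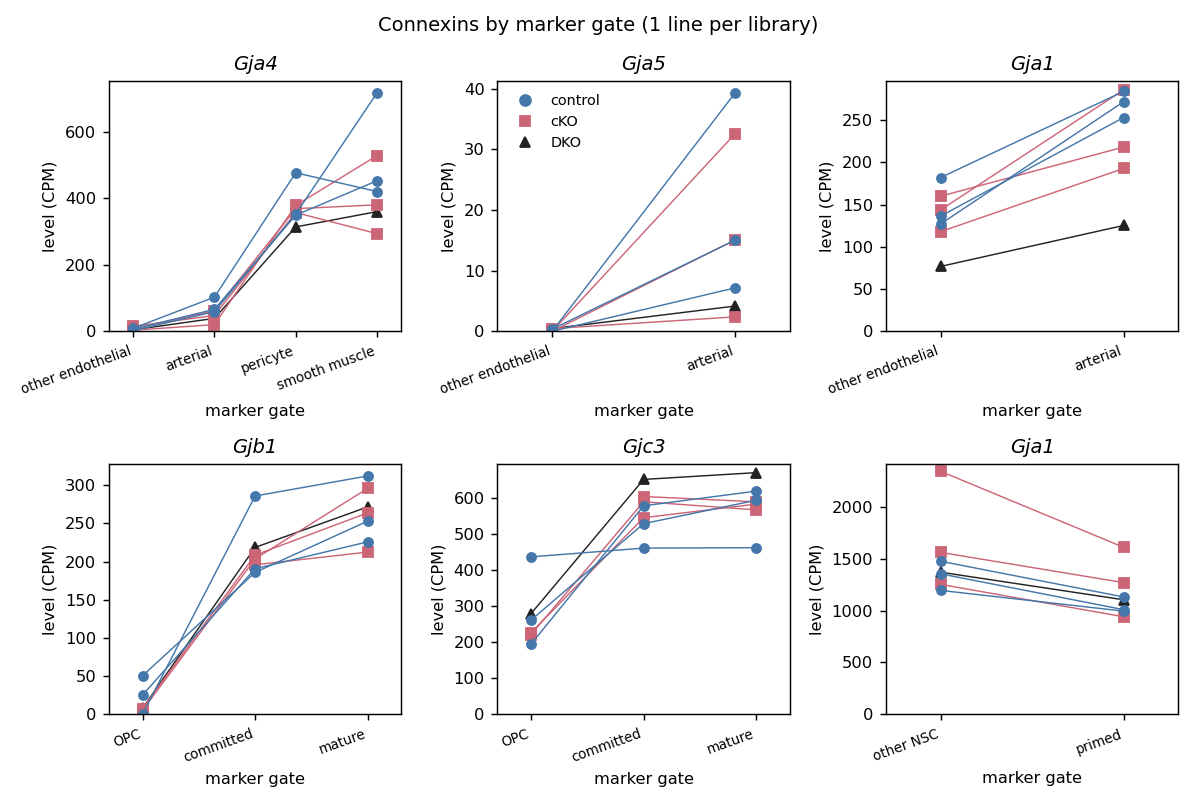
Level (y axis, CPM) of Gja4, Gja5, Gja1, Gjb1 and Gjc3 in marker gates within a cell type (x axis), with 1 point per library and a line joining the gates of a library. Gja4, Gja5 and Gja1 rise from other endothelial to arterial cells in every library, and Gja1 falls from other NSC-like to primed cells in every library.

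Gjd2, which encodes connexin 36, the channel of neuronal electrical synapses, was close to its detection limit. It lies at chr2:114009601-114013619 on the minus strand and gave 65 UMIs in 7964 neuroblast-like cells, 21 UMIs in 2115 neuron-like cells and 0 UMIs in 5254 NSC-like cells, which allows a share of up to 0.0571% of NSC-like cells with a UMI. Neuroblast-like cells stood at 1.26, 1.09 and 1.44 CPM in control, 0.633, 2.83 and 1.60 CPM in cKO and 1.59 CPM in DKO libraries, overlapping neuron-like cells (0 to 1.73 CPM). Striatal projection neurons split by gates on Drd1 and Drd2 genes gave 10 UMIs in 787 and 11 UMIs in 1073 cells. Gja1, the 1 connexin tested between these gates, did not pass (0.01, SE 0.44, edgeR adjusted p = 1.00), against 9.62% of all genes called. Gja5 and Gjd2 overlap genes on the opposite strand, and since the sources used here do not give the strand setting, their low counts are uncertain.

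Whether loss of Prdm16, or of Prdm16 and Vcam1, changed the connexins was asked within each type, in 1 fit of all 7 libraries. Of 99 pairs of connexin and type, 57 passed the filter on low counts: Gja1 and Gjc3 in all 11 types, Gjb1, Gjb6 and Gjc1 in 9, Gjb2 in 3, Gja4 and Gjd2 in 2 and Gja5 in 1. None of the 57 passed an adjusted p of 0.05 in edgeR's quasi-likelihood test in cKO against control (0.131% of all gene tests called), DKO against control (0.0351%) or DKO against cKO (0.0286%). At an unadjusted p under 0.05 there were 3, 8 and 5 pairs, or 5.26%, 14% and 8.77%, against 6.13%, 5% and 4.14% of all gene tests. DESeq2 called 1 pair in cKO against control, Gjc3 in astrocyte-like cells, and 0 in the other contrasts. In 3 of the 57 pairs the cKO and control libraries did not overlap, all with cKO higher (Gjc3 and Gjb2 in astrocyte-like and Gja1 in ependymal-like cells), against 11.1% of all gene tests (13.9% in astrocyte-like and 12.6% in ependymal-like cells). Libraries of a genotype are pools of mice, and in sums over cells a change in the make-up of a type and a change per cell cannot be told apart.

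Gjc3 in astrocyte-like cells had the smallest p of the cKO contrast among the connexins. It stood at 6.14, 4.07 and 6.87 CPM in control, 12.9, 11.7 and 32.2 CPM in cKO and 13.8 CPM in DKO libraries. All cKO libraries and the DKO library lay above all control libraries, and cKO library 3 stood apart. The log2 difference of cKO and control was 1.77 (SE 0.42, edgeR adjusted p = 0.075), the two-sided exact permutation p was 0.1, the smallest that 3 libraries against 3 allow, and 1.26% of all genes were called in this type. It passed with DESeq2 (adjusted p = 0.016), without the filter, without TMM, with a block for the replicate number or for Cell Ranger's version, and without cKO library 1, with differences of 1.73 to 2.01. It was 1.06 without cKO library 3 (edgeR adjusted p = 0.39) and 1.05 with at most 5% mitochondrial counts (edgeR adjusted p = 0.78). The mean of cKO libraries was 2.41 times that of control libraries among those with Cell Ranger 6.0.1 and 4.68 times in the 1 pair with 6.1.1. The level is low beside 571 ± 63.7 CPM in oligodendrocyte-like cells, of which it was 2.19% over all libraries, where the 6 oligodendrocyte markers had a median of 1.16%. Those markers summed to 752 to 1076 CPM in control, 741 to 1203 CPM in cKO and 1189 CPM in DKO astrocyte-like cells; the cKO mean was 0.644 times the control mean for Mag and 3.68 times for Enpp2, and their part in the Gjc3 result was not tested. Other markers also moved in these cells: 6 endothelial markers summed to 12.7 to 28.3 CPM in control, 32.2 to 56.1 CPM in cKO and 43.7 CPM in DKO libraries, and 5 fibroblast markers to 25.5 to 35.8 CPM, 6.14 to 18.1 CPM and 10.5 CPM, and their part was not tested either.

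Gja1 was not called in any type between cKO and control libraries, and in ependymal-like cells alone did the groups not overlap. In ependymal-like cells the cKO libraries, given above, lay above all control libraries and the DKO library (log2 difference 0.57, SE 0.19, edgeR adjusted p = 0.37, exact permutation p = 0.1), and the ratio of means was 1.34 with Cell Ranger 6.0.1 and 1.60 with 6.1.1. In the same cells the 4 smooth muscle markers summed to 639 to 908 CPM in cKO, 389 to 566 CPM in control and 610 CPM in DKO libraries, and 5 choroid plexus markers to 144 to 660 CPM in cKO, 517 to 2487 CPM in control and 3233 CPM in DKO libraries, and their part in the Gja1 difference was not tested. Gja1 itself had a mean of 59.8 CPM in mural-like cells. Sums of the other marker lists in ependymal-like cells, astrocyte and NSC markers among them, are not given here. In neuroblast-like cells Gja1 stood at 16.4, 21 and 20.2 CPM in control, 19.0, 36.8 and 33.3 CPM in cKO and 18.4 CPM in DKO libraries. There cKO libraries 2 and 3 were high and cKO library 1 lay within the control range, with a difference of 0.67 (SE 0.24, edgeR adjusted p = 0.49). Gja1 there was at the level of the astrocyte markers (0.88% against 0.93%, above), which summed to 52.2 to 64.1 CPM in control, 50.0 to 86.5 CPM in cKO and 61.0 CPM in DKO libraries, and their part was not tested. Without cKO library 1 it was 0.91 (edgeR adjusted p = 0.035), and with finer clusters it reversed to -0.32. In NSC-like cells, where cKO library 1 was lowest and cKO library 2 highest of all, the difference was 0.39 (SE 0.23, edgeR adjusted p = 0.49), and it reversed without integration (-0.14) and when cells were named 1 by 1 (-0.23). In astrocyte-like cells Gja1 differed by less than its spread, at 2774 ± 328 CPM in control and 2629 ± 457 CPM in cKO libraries (SD, n = 3 each, exact permutation p = 0.6).

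None of the other connexins was called between cKO and control libraries either. Several larger fitted differences came with large errors in pairs at low levels, among them Gjb6 in OPC-like cells (-1.25, SE 0.86), Gjd2 in TAP-like cells (1.05, SE 0.92), Gjc1 in oligodendrocyte-like cells (-0.91, SE 0.47) and Gjc1 in neuroblast-like cells (-0.87, SE 0.73), where no library exceeded 4.79 CPM. Gjc3 in microglia-like cells (-0.89, SE 0.59) stood higher, at 29.2 ± 22.3 CPM in control and 13.7 ± 10.9 CPM in cKO libraries (SD, n = 3 each, exact permutation p = 0.4). In mural-like cells Gjc3 differed by -0.73 (SE 0.58), at means of 12.4 CPM in control and 7.80 CPM in cKO libraries. Gjb2 in astrocyte-like cells stood at 19.5 ± 2.05 CPM in control and 25.1 ± 5.95 CPM in cKO libraries (SD, n = 3 each, exact permutation p = 0.1), where cKO library 1 (20.9 CPM) lay barely above the highest control library (20.8 CPM). Gjb6 stood at 291 ± 59.6 and 324 ± 28.4 CPM in the same cells (exact permutation p = 0.4, n = 3 each). In mural-like cells Gja4 stood at 435 ± 37.1 CPM in control and 366 ± 35.7 CPM in cKO libraries (exact permutation p = 0.2, n = 3 each), and Gjc1 at 545 ± 27.1 and 465 ± 47.0 CPM (exact permutation p = 0.2, n = 3 each). For both genes 2 of 3 cKO libraries lay below all control libraries. In oligodendrocyte-like cells Gjb1 stood at 279 ± 60.1 and 264 ± 20.0 CPM (exact permutation p = 0.9, n = 3 each) and Gjc3 at 532 ± 76.5 and 583 ± 25.8 CPM (exact permutation p = 0.4, n = 3 each).

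**Figure D5:**
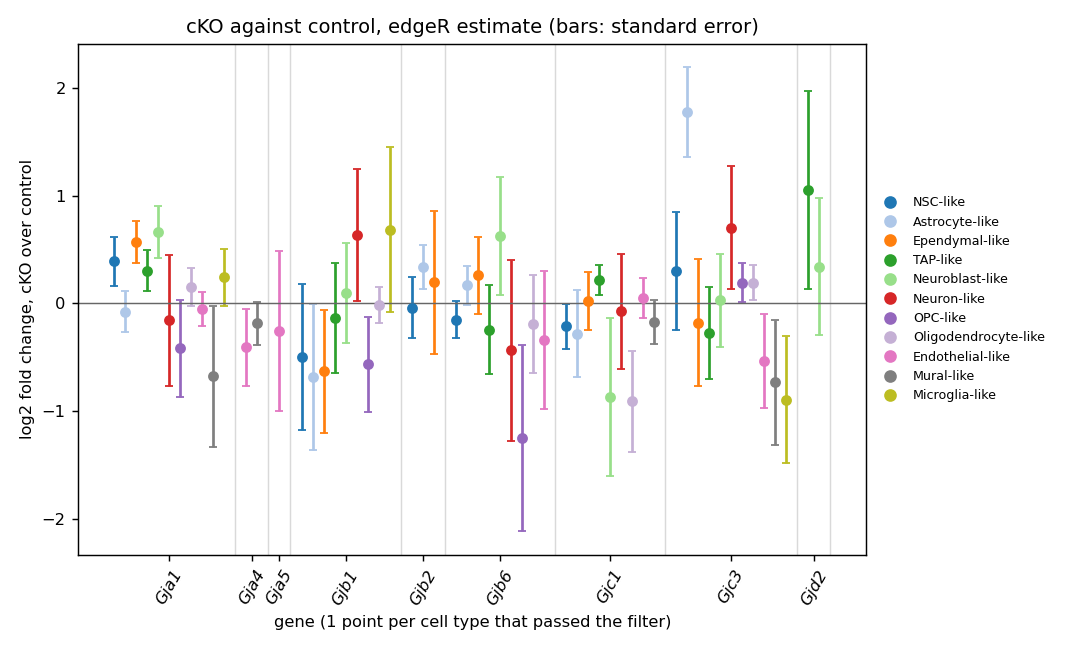
Log2 fold change of cKO over control (y axis) for the 57 pairs of connexin (x axis) and cell type (color) that passed the filter on low counts, as points with bars of 1 standard error from edgeR. Gjc3 in astrocyte-like cells lies highest at 1.77, and no point passed an adjusted p of 0.05.

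Contrasts with the DKO library, which has no replicate, assumed that it varies like the other groups. Their SE and p thus rest on the spread of the control and cKO libraries. The DKO library, which shares the control libraries with the cKO contrast, was the lowest of the 7 libraries for Gja1 in endothelial-like, microglia-like and oligodendrocyte-like cells. In endothelial-like cells its 95.7 CPM lay below the 141 CPM of the lowest other library (DKO against control -0.81, SE 0.23, edgeR adjusted p = 0.61), while Gjc1 stood at 172 CPM, above the 86.6 to 135 CPM of the other libraries (0.78, SE 0.24, edgeR adjusted p = 0.61). In microglia-like cells Gja1 stood at 45.8, 56.1 and 47.2 CPM in control, 70.4, 32.0 and 54.2 CPM in cKO and 13.4 CPM in DKO libraries (DKO against control -1.88, SE 0.48, edgeR adjusted p = 0.84). In oligodendrocyte-like cells it stood at 17.3 CPM in the DKO library against at least 25.6 CPM elsewhere (DKO against control -0.74, SE 0.26, edgeR adjusted p = 0.99), and this sign turned with cells named 1 by 1 (0.14). The Gja1 levels of both types lie in the range of the astrocyte markers given above. In neuron-like cells Gjb1 and Gjc3 were highest in the DKO library, at 14.1 and 22.4 CPM against at most 6.66 and 14 CPM elsewhere (2.61, SE 0.68, edgeR adjusted p = 0.60, and 2.02, SE 0.68, edgeR adjusted p = 1.00). The 6 oligodendrocyte markers were also highest there, summing to 3015 CPM in neuron-like cells of the DKO library against 652 to 1324 CPM in control and 332 to 1830 CPM in cKO libraries, and their part in these values was not tested.

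A list of 13 pannexins and connexin partners was read beside the connexins. None of its members passed in any genotype contrast and type. Its most abundant members in control NSC-like cells were Mlc1 and Hepacam, membrane proteins of astrocyte endfeet, at 485 ± 107 and 292 ± 20.9 CPM, and the adhesion molecule Cdh2 at 218 ± 25.2 CPM (SD, n = 3). From TAP-like to NSC-like cells 7 of 11 tested were higher and 3 lower (Panx1, Dbn1 and Ctnnb1), against 74.8% of all genes called. Those higher included Panx2, Tjp1, Cav1, Cdh2, Mlc1 (3.78, SE 0.18, edgeR adjusted p = 1.4e-28) and Hepacam (2.78, SE 0.13, edgeR adjusted p = 9.1e-30), and the pannexin Panx1 was lower (-2.85, SE 0.14, edgeR adjusted p = 1.8e-30). Between astrocyte-like and NSC-like cells 3 were higher and 5 lower of 11 (45.9% of all genes called), with Hepacam higher by 0.75 (SE 0.12, edgeR adjusted p = 4.8e-07) and Mlc1 not called (0.10, SE 0.16, edgeR adjusted p = 0.64). In endothelial-like cells Cav1, the scaffold of caveolae, stood at 272 ± 29.2 CPM (SD, n = 7).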

How the data were processed

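Libraries were 10x 3′ v3.1 captures of papain-dissociated V-SVZ cells. The authors deposited filtered matrices of raw UMI counts per gene and barcode made with Cell Ranger (6.0.1 for control 1 and 2 and cKO 1 and 2, and 6.1.1 for the other libraries, per the file headers; the submitters' processing notes list 6.1.1). Genotype and Cell Ranger version cross, except that the DKO library has 1 version. The members and gene lists were chosen with earlier results of these data known, and they comprised the 9 connexins in every named type and gate, other connexins at 5 CPM or more in control libraries, 13 partners and, for members at 10 CPM or more, the 2 genes most alike. Some genes that these lists or rules name are not reported here.

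Cells with 500 to 7000 genes and at most 10% mitochondrial counts were integrated across libraries with Seurat 5.3.0 (canonical correlation analysis, 2000 features without the 20 connexin symbols, 30 components, resolution 0.15). A cluster qualified for a type where it met at least 3 of the type's markers and most of the type's list. A marker was met when found in at least 10% of the cluster's cells at a log2 difference of 1 or more. Where several types qualified, the highest mean log2 difference over a type's markers gave the name. Clusters that did not qualify stayed unnamed. So did clusters that met every marker of more than 1 type, and shallow clusters that missed a marker. This rule was set after the clusters were seen. Names were rebuilt and may differ from the study's. Scrublet (scanpy 1.11.5) marked 1043 cells as doublets, which were kept, with an alternative without them.

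UMI counts were summed per library and type (at least 10 cells) and tested with edgeR 4.0.16 (filterByExpr, TMM, robust quasi-likelihood, Benjamini-Hochberg adjustment over all genes of a fit) in R 4.3.3; CPM are counts scaled to the total of a sum. DESeq2 1.42.0, blocks, filters, other clusterings and single libraries left out were alternatives. The study's own test took cells as replicates, and libraries were used here instead. Gates required UMIs of 2 genes of a list (3 as an alternative); the interneuron gate held too few cells. Exact permutation tests were two-sided. Intervals and floors (3 counts) cover counting error only. The test scripts were checked on simulated counts. Replicate libraries differed beyond sampling noise (chi-square per degree of freedom 58.2 to 214). Same-numbered libraries all deviated together (every r above 0.1) only in endothelial-like (lowest 0.12) and microglia-like cells (lowest 0.12). In the other types libraries numbered 2 stayed below 0.1, while those numbered 1 and 3 exceeded it, except number 1 in neuron-like cells (-0.13). In TAP-like cells r was 0.52 and 0.56 for numbers 1 and 3, and in astrocyte-like cells 0.30 and 0.41. Labels do not say whether libraries of a group were separate litters or days, so p-values measure the spread between these pools. Positions are from GENCODE vM21 (GRCm38), in which 99.6% of the 32285 genes were found.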

Additional observations from a re-analysis of the deposited data

Results flagged for a closer look

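Cells that could not be named held the highest levels of 2 connexins, above every named type. Gjb2 stood at a mean of 168 CPM over the 7 libraries in the cluster led by Lgals1, Spp1 and Dcn (434 UMIs in 1705 cells), against 23.0 CPM in astrocyte-like cells, the highest named type. A minority of its cells carried this level, 7 to 20 cells with a Gjb2 UMI per library, or 0.561% of them in control library 2 and 8.59 to 36% elsewhere. Control library 2, which gave 1247 of these cells, was lowest at 13.1 CPM, and the other libraries ran from 118 CPM in control library 1 to 309 CPM in cKO library 2. Without control library 2, an alternative chosen after seeing the data, the mean was 194 CPM. Gjd2 stood at a mean of 19.8 CPM in the cluster led by Neurod1, Eomes and Tbr1, genes of glutamatergic neuron precursors (96 UMIs in 462 cells), against 1.49 CPM in neuroblast-like cells. The libraries of that cluster ran from 4.95 CPM in control library 2 to 36.4 CPM in control library 1. These clusters were outside all comparisons above, and no difference was tested.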

How the results depend on the processing

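Of 711 alternative values of 92 results, 644 kept their direction and side of the threshold, 39 lost and 10 gained a call, and 18 changed sign. The 92 results were all type and gate calls, genotype pairs with an unadjusted edgeR p under 0.05, and a fixed list of cKO pairs. Type and gate tests not called in the main setting were left out, so none of them could count as gaining a call. Connexin calls in cKO against control went from 0 to 1 with DESeq2, without the filter on low counts, without TMM, with the replicate block and with the Cell Ranger version as a block, each time Gjc3 in astrocyte-like cells. They ran from 0 to 2 when single libraries were left out, with 2 only without cKO library 1. The replicate block changed no call in endothelial-like and microglia-like cells, where all numbers paired. In astrocyte-like cells, where numbers 1 and 3 paired, it gave Gjc3 its call (edgeR adjusted p = 1.1e-05). Without the filter, DKO against control gave 2 calls (Gjb1 and Gjc3 in neuron-like cells) and DKO against cKO gave 1 (Gja1 in microglia-like cells). Calls between types ran from 45 without doublets to 57 without the filter, around 53, and calls between gates from 12 to 14, below 15. Signs turned, with the cause not tested, for cKO against control in Gja1 in NSC-like cells (-0.14 without integration, -0.23 with cells named 1 by 1), in Gja1 in neuroblast-like cells (-0.32 at resolution 0.3), in Gja1 in astrocyte-like cells (-0.18 to 0.0035 without single libraries, positive without cKO library 3), in Gjb6 in astrocyte-like cells (-0.11 with cells named 1 by 1) and in Gjb1 in oligodendrocyte-like cells (0.0064 with the replicate block, -0.097 to 0.17 without single libraries, 0.048 with cells named 1 by 1). They turned for Gja1 in oligodendrocyte-like cells with cells named 1 by 1 (0.14 in DKO against control, 0.25 in DKO against cKO). Between types they turned for Gjc3 in astrocyte-like against ependymal-like cells (-0.40 in control libraries alone), Gja1 in TAP-like against neuroblast-like cells (-0.0195 at resolution 0.3) and, with cells named 1 by 1, for Gja4 (1.5) and Gjb1 (0.79) in NSC-like against ependymal-like, Gjc1 in neuron-like against neuroblast-like (-1.01, edgeR adjusted p = 8.0e-05) and Gjc3 in endothelial-like against microglia-like cells (0.23). Without integration no cluster was named astrocyte-like. Leaving out TMM turned no connexin's sign, but moved the higher and lower calls over all genes from 5209 and 4814 to 2162 and 8708 in oligodendrocyte-like against OPC-like cells, from 3383 and 3802 to 2464 and 5198 in astrocyte-like against NSC-like cells, and from 3785 and 3201 to 2972 and 4091 in endothelial-like against mural-like cells; in the last 2 the median of all genes went from -0.03 to -0.16 and from 0.04 to -0.11.

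Depth limits Gja5, Gjd2 and Gjb2 outside astroglia, and 3 libraries against 3 with 1 DKO library limit every genotype contrast. Free RNA was not removed.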

Other observations

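Other unnamed cells held connexins too. Gja1 stood at 827 CPM in a cluster led by hemoglobin genes and Gfap (3236 cells), and at 361 CPM beside 72.9 CPM of Gjb6 in the cluster led by Lgals1, Spp1 and Dcn. A cluster of 341 cells that met mural and endothelial markers together gave 297 CPM of Gjc1 and 148 CPM of Gja4, between the mural-like and endothelial-like levels of both genes.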
